A study of Mus musculus with 4 samples.

Results

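Cells recognise foreign or misplaced nucleic acids with proteins of the cytosol, and 10 genes of this system are described here: the RNA helicases Ddx58 (RIG-I), Ifih1 (MDA5) and Dhx58 (LGP2), the Z-form nucleic acid sensor Zbp1, the effectors Eif2ak2 (PKR) and Adar, the adaptors Mavs and Tmem173 (STING), the kinase Tbk1 and the transcription factor Irf3. They were chosen by gene symbol in the platform annotation. Of the 10 genes, 9 had at least 1 of the 25697 probes on the array, 14 probes in all, and 8 were among the 8442 genes tested. Tmem173 is not analysed here, and the probe of Ifih1 was not above background on any array. All 8 tested genes were detected on all 4 arrays, so none entered the test through 1 group alone.

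Gene expression was measured on 4 single-colour Illumina bead arrays with RNA of intestinal epithelial cells from C57BL/6 mice. The 2 Ifnar1-/- samples carry a deletion of Ifnar1, which encodes a chain of the type I interferon receptor, together with deletion of Csnk1a1 from the gut epithelium. The 2 Ifnar1+/+ samples carry the same Csnk1a1 deletion, so the comparison lies within epithelium in which the gene of casein kinase 1 alpha, an inhibitor of Wnt signalling, was targeted. Floxed Csnk1a1 was the target of Vil1-Cre-ERT2, a tamoxifen-activated recombinase made where the villin promoter is active, and no recombinase is named for Ifnar1-/-. Tamoxifen was given at 120 mg/kg in both groups and cells were taken 5 days after the last injection. The age at sampling, and whether the samples of a group are separate animals, are not given in the labels, so a p-value here rests on sample-to-sample spread alone, part or all of it possibly technical. The protocol writes Ifnar1+/+ for both crosses, and the groups follow the sample titles, which match the genotype labels.

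The labels name the tissue colon, while the protocol describes mid small intestine. Of 6 small intestine markers with a probe 5 were detected on at least 1 array, and of 3 colon markers none was. All 7 epithelial markers with a probe were detected. The probes of Ifnar1 and Csnk1a1 were not well above background on any array, with detection p-values of 0.301 to 0.902 and 0.244 to 0.729, so they do not check the genotypes. The Ifnar1-/- arrays were less alike, with 623 genes (7.38%) over 1 log2 unit apart, against 143 genes (1.69%) between the Ifnar1+/+ arrays. Between 11234 and 11954 probes were detected per array. Each group had only 2 arrays, which limits precision.

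RIG-I binds short double-stranded RNA with a 5′ triphosphate and MDA5 binds long double-stranded RNA, and both signal through MAVS on mitochondria. LGP2 is a relative without the signalling domains that tunes the other helicases. DNA in the cytosol is sensed by cGAS and relayed by STING, and both routes meet at TBK1, which phosphorylates IRF3 to switch on type I interferon genes. Interferon then acts back through IFNAR1 and the complex ISGF3 on genes with an interferon-stimulated response element, and several sensors are themselves known as interferon-induced genes.

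The promoters are shown because the genotype removes the receptor that acts through this element. RefSeq windows (GRCm38.p6) from 250 bases before to 50 bases after the annotated start were available for 7 of the genes, in 9 windows: Ddx58, Ifih1, Eif2ak2, Adar, Mavs, Tbk1 and Irf3. The letters GAAANNGAAA, a core of the response element, were searched on both strands. They lay in the windows of 3 of these genes, Ddx58, Ifih1 and Eif2ak2, while 3.99% of the 27025 genes with a window hold them (3.44% of all 32851 windows). Each match is printed in capitals with up to 10 bases on each side, 5′ to 3′ on the strand of the gene.
Ddx58: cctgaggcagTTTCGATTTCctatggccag
Ifih1: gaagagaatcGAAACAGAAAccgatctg
Eif2ak2: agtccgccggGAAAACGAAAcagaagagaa
The Ddx58 stretch lies on the minus strand at chr4:40239804-40239833, with the match read on the opposite strand from base 3 to base 12 after the start, counted from 1 at the start. The Ifih1 stretch lies on the minus strand at chr2:62646206-62646233, with the match at bases 33 to 42. The Eif2ak2 stretch lies on the minus strand at chr17:78882535-78882564, with the match at bases 19 to 28. All 3 matches therefore fall within the 50 bases that follow the annotated start. A second motif, TTCNNNGAA, the letters of a gamma-activated site, reads the same on both strands. It lay in a window of Adar and in that of Eif2ak2, while 9.55% of the 27025 genes with a window hold it (8.30% of all windows). A match describes the letters only and shows no binding.

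The comparison of Ifnar1-/- with Ifnar1+/+ samples asks how expression of these sensors and effectors differs when the type I interferon receptor is missing. Of the 8 genes tested, 8 had a lower mean in the Ifnar1-/- samples, against 47.0% of all genes tested. Dhx58 had the largest difference of the 8, at 2.69-fold lower, and the other differences ran from 1.05-fold (Irf3) to 1.45-fold (Ddx58) lower. Their median log2 difference was -0.38, beside 0.03 over all 8442 genes. None of the 8 passed limma's test at an adjusted p under 0.05, where 0% of all genes passed, and the smallest adjusted p among them was 0.401. At an unadjusted p under 0.05, 1 of the 8 was lower (Dhx58) and 0 were higher, against 5.27% lower, 4.25% higher and 9.52% in either direction over all genes.

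**Figure D1:**
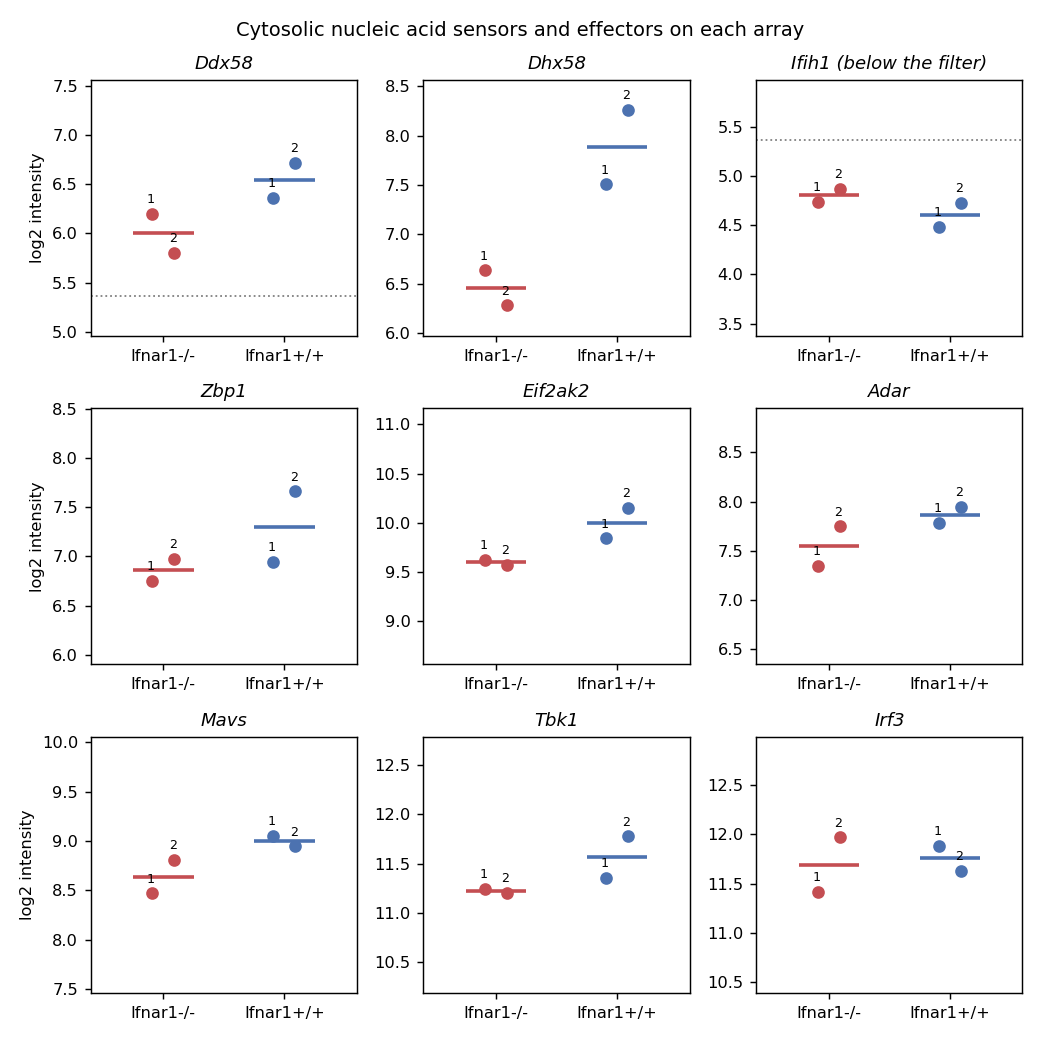
Background-corrected, quantile-normalized log2 intensity of the brightest probe of each gene, with 1 panel per gene, Ifnar1-/- arrays in red on the left and Ifnar1+/+ arrays in blue on the right. Points are arrays, labelled by replicate, horizontal bars are group means, every panel spans the same number of log2 units, and the dotted line, drawn where it falls in range, is the lowest log2 intensity of a detected probe on the array where that limit is highest (5.37, Ifnar1+/+ array 2). Dhx58 shows the widest gap between the groups, Irf3 and Zbp1 overlap, and Ifih1 lies under the dotted line on all 4 arrays.

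Among the helicases, Dhx58 had normalized log2 intensities of 6.63 and 6.28 on the Ifnar1-/- arrays, against 7.50 and 8.26 on the Ifnar1+/+ arrays. Both Ifnar1-/- values lay below both Ifnar1+/+ values, and the gap between the groups exceeded the gap within either. The log2 difference was -1.43 ± 0.32 (SE, n = 2 per group), with a 95% interval of -2.19 to -0.67 and an adjusted p of 0.401 in limma. In the ranking of the 8442 genes by p, Dhx58 was number 67. The raw intensities separated in the same way, at 238 and 197.5 on the Ifnar1-/- arrays against 301.5 and 364.6 on the Ifnar1+/+ arrays. The size depends on the background correction: without it the log2 difference was -0.79. Leaving out Ifnar1-/- array 1 gave -1.60, and leaving out Ifnar1+/+ array 2 gave -1.05.

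Ddx58, the helicase that reads short 5′-triphosphate RNA, lay at 6.20 and 5.80 on the Ifnar1-/- arrays and at 6.36 and 6.72 on the Ifnar1+/+ arrays. The groups did not overlap, but the distance between the nearest arrays of the groups was smaller than the gap within each group, which was 0.40 between the Ifnar1-/- arrays and 0.36 between the Ifnar1+/+ arrays. The log2 difference was -0.54 ± 0.26 (SE, n = 2 per group; 95% interval -1.17 to 0.09, limma adjusted p = 0.547). It was -0.21 without background correction. In the raw signals the groups of Ddx58 overlapped, with 207.4 and 175.8 on the Ifnar1-/- arrays against 199.3 and 200.2 on the Ifnar1+/+ arrays. Ifih1, whose product reads long double-stranded RNA, had raw intensities of 142.5 and 142 on the Ifnar1-/- arrays, against 115.8 and 130.5 on the Ifnar1+/+ arrays. Its detection p-values were between 0.269 and 0.885, so the probe was not well above background on any array and no fold is given.

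Zbp1, which binds Z-form nucleic acid and can start necroptosis through RIPK3, had 2 probes, of which 1 was above background. That probe lay at 6.75 and 6.98 on the Ifnar1-/- arrays and at 6.94 and 7.66 on the Ifnar1+/+ arrays. The groups overlapped, with Ifnar1+/+ array 2 well above the other arrays. The log2 difference was -0.44 ± 0.30 (SE, n = 2 per group; limma adjusted p = 0.631), and it was -0.08 without Ifnar1+/+ array 2.

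Of the effectors, Eif2ak2 encodes PKR, the kinase that double-stranded RNA activates and that halts translation by phosphorylating eIF2alpha. It lay at 9.63 and 9.57 on the Ifnar1-/- arrays and at 9.84 and 10.15 on the Ifnar1+/+ arrays. The Ifnar1-/- arrays were close to each other and below both Ifnar1+/+ arrays. The nearest arrays of the groups lay 0.22 apart, less than the 0.31 between the Ifnar1+/+ arrays. In the raw signals the groups also separated, at 1027.1 and 884.1 on the Ifnar1-/- arrays against 1057.3 and 1071.8 on the Ifnar1+/+ arrays. There the Ifnar1-/- arrays were further apart than the groups were at their nearest. The log2 difference was -0.40 ± 0.23 (SE, n = 2 per group; 95% interval -0.96 to 0.17, limma adjusted p = 0.601).

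Adar encodes the enzyme that turns adenosine into inosine in double-stranded RNA, and its 3 probes were all above background on all arrays. The brightest lay at 7.35 and 7.75 on the Ifnar1-/- arrays and at 7.78 and 7.95 on the Ifnar1+/+ arrays. Its groups did not overlap, but the nearest arrays lay 0.03 apart. The log2 difference was -0.32 ± 0.25 (SE, n = 2 per group; limma adjusted p = 0.677). The other probe of the same annotated transcript lay at 6.47 and 5.80 on the Ifnar1-/- arrays and at 6.33 and 7.24 on the Ifnar1+/+ arrays. The probe annotated to another transcript lay at 6.04 and 6.13 on the Ifnar1-/- arrays and at 5.94 and 5.93 on the Ifnar1+/+ arrays. The log2 differences of these other probes were -0.65 ± 0.38 and 0.15 ± 0.22 (SE), so the probes of Adar disagree in direction and none passed (limma adjusted p of 0.607 and 0.844).

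**Figure D2:**
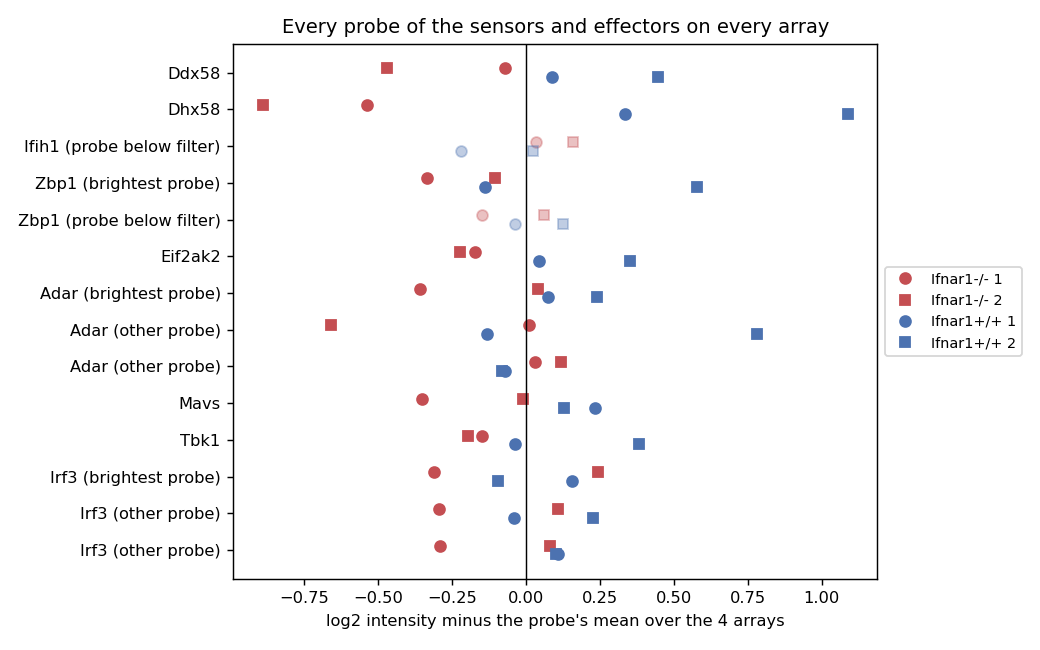
Log2 intensity of each of the 14 probes on each array, relative to the mean of that probe over the 4 arrays, with Ifnar1-/- arrays in red above Ifnar1+/+ arrays in blue, and replicate 1 as circles and replicate 2 as squares. Faint points are the 2 probes below the filter. Ifnar1+/+ array 2 is the highest array for most brightest probes, and the 3 Adar probes do not run the same way.

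The signalling genes tested were Mavs, Tbk1 and Irf3. Mavs, the mitochondrial adaptor of the helicases, lay at 8.47 and 8.81 on the Ifnar1-/- arrays and at 9.05 and 8.95 on the Ifnar1+/+ arrays. Tbk1, the kinase shared by the RNA and DNA routes, lay at 11.25 and 11.20 on the Ifnar1-/- arrays and at 11.36 and 11.78 on the Ifnar1+/+ arrays. In neither gene did the groups overlap, but the distance between their nearest arrays was 0.14 for Mavs and 0.11 for Tbk1. The log2 differences were -0.36 ± 0.24 for Mavs and -0.35 ± 0.25 for Tbk1 (SE, n = 2 per group; limma adjusted p of 0.627 and 0.647). Their 95% intervals ran from -0.93 to 0.21 for Mavs and from -0.94 to 0.25 for Tbk1.

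Irf3, the transcription factor that TBK1 activates, showed the smallest difference of the 8 genes. Its brightest probe lay at 11.41 and 11.97 on the Ifnar1-/- arrays and at 11.88 and 11.63 on the Ifnar1+/+ arrays. The Ifnar1-/- arrays enclosed the Ifnar1+/+ arrays, and Ifnar1-/- array 1 was the lowest. The log2 difference was -0.06 ± 0.28 (SE, n = 2 per group; 95% interval -0.72 to 0.60, limma adjusted p = 0.953), and it turned to 0.21 when Ifnar1-/- array 1 was left out and to 0.06 when Ifnar1+/+ array 1 was. The other probes of Irf3 differed by -0.21 and -0.19. The interval leaves room for a change of about the size seen for Ddx58, so it does not show that Irf3 was equal in the groups.

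**Figure D3:**
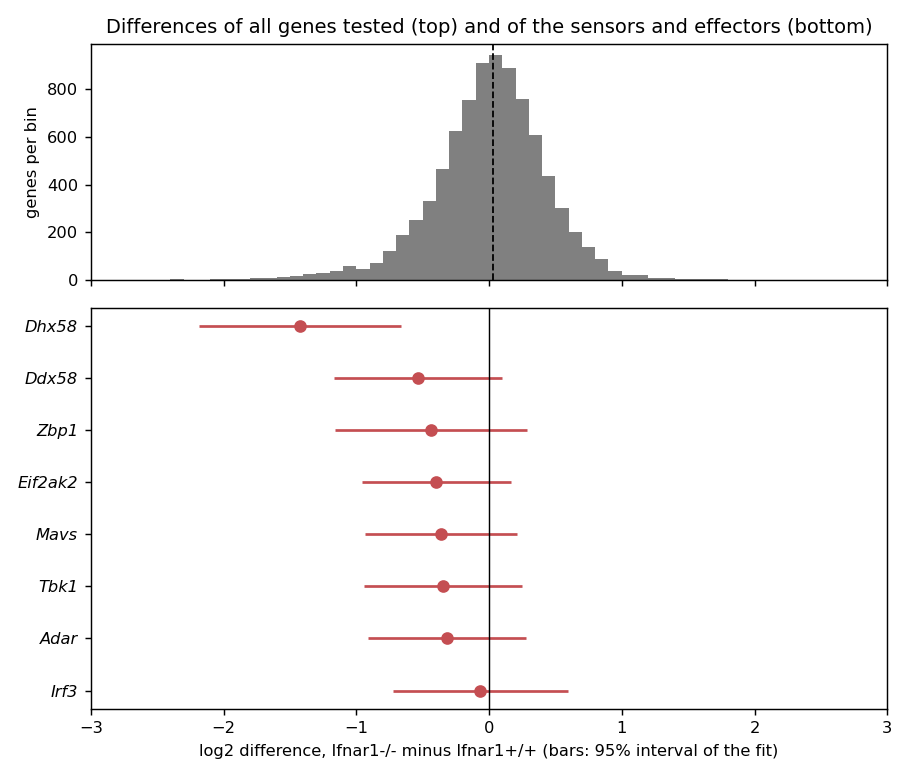
Top, histogram of the log2 difference, Ifnar1-/- minus Ifnar1+/+, of the 8442 genes tested, in bins of 0.1, with a dashed line at their median of 0.03. Bottom, the same difference for the 8 sensors and effectors tested, with the 95% interval of the limma fit: all points lie left of 0, and the interval of Dhx58 alone excludes 0 before adjustment.

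Both Ifnar1-/- arrays lay below both Ifnar1+/+ arrays for 6 of the 8 genes, against 19.5% of all genes tested, and for none were they above, against 23.9% (43.4% in either direction). The 2 genes that overlapped were Zbp1 and Irf3. In the raw signals, before any scaling between arrays, the groups separated in this direction for 2 of the 8, Dhx58 and Eif2ak2, against 6.71% of all genes. The raw medians were 157.8 and 151.3 on the Ifnar1-/- arrays against 145.3 and 143.5 on the Ifnar1+/+ arrays, so the order of the weakly separated genes depends on the scaling. Ifnar1+/+ array 2 was the highest array for 6 of the 8 genes, and the median log2 difference of the 8 was -0.24 when it was left out. Leaving out Ifnar1+/+ array 1 gave -0.55 and leaving out Ifnar1-/- array 1 gave -0.35. In each of those last cases 7 of the 8 genes had a lower mean, the exception being Irf3.

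**Figure D4:**
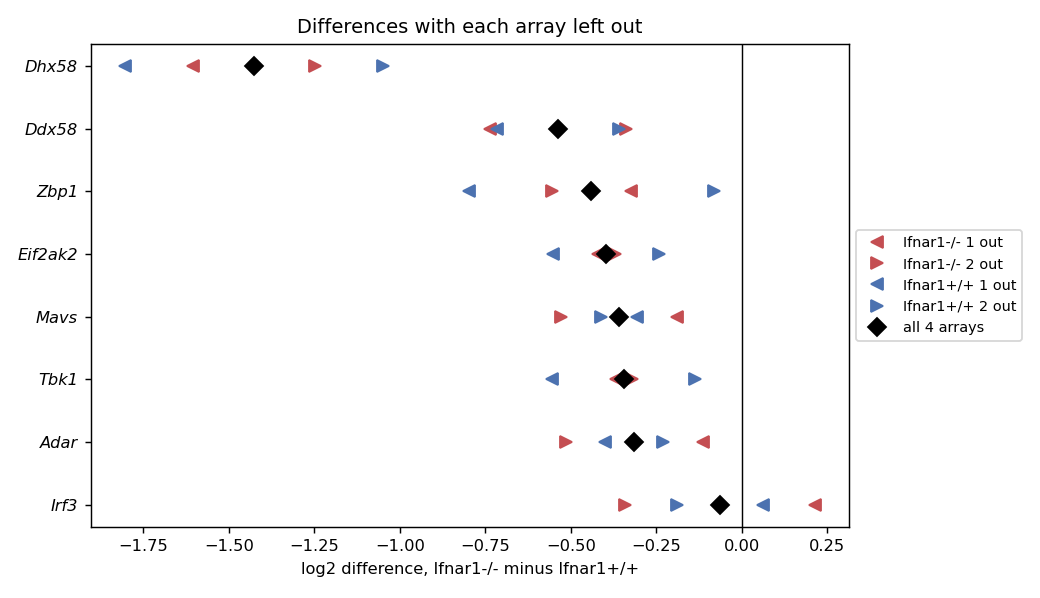
Log2 difference, Ifnar1-/- minus Ifnar1+/+, of each tested sensor and effector with all 4 arrays (black diamonds) and with 1 array left out (red triangles, an Ifnar1-/- array; blue triangles, an Ifnar1+/+ array; left-pointing, replicate 1; right-pointing, replicate 2). Dhx58 stays between -1.80 and -1.05, while Irf3 crosses 0.

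The samples are cell preparations in bulk, in which fewer cells of a type and less RNA per cell cannot be told apart. Markers of T cells and intraepithelial lymphocytes moved with the comparison: of 12 with a probe 7 were tested, all 7 with both Ifnar1-/- arrays below both Ifnar1+/+ arrays, against 19.5% of all genes. Their summed normalized intensity was 323 and 495 on the Ifnar1-/- arrays against 926 and 894 on the Ifnar1+/+ arrays. Both the count and the sums include Cd3d, which passed the filter through the Ifnar1+/+ arrays alone, so the filter favoured its separation in this direction. Cd3d was at least 1.71-fold lower, its probe being not well above background in the Ifnar1-/- samples, and Cd3g was detected on only 1 of the Ifnar1-/- arrays. Cd8a, Gzma, Gzmb, Cd2 and Cd7 were not detected on any array. Of 11 fibroblast and smooth muscle markers 7 were tested, with sums of 930 and 647 on the Ifnar1-/- arrays against 3545 and 980 on the Ifnar1+/+ arrays, and Tagln was not detected. Dcn was the brightest of these on Ifnar1+/+ array 1, at a log2 intensity of 11.14, against 8.64 on Ifnar1+/+ array 2. Vim passed the filter through the Ifnar1+/+ arrays alone. Both Ifnar1-/- arrays lay below both Ifnar1+/+ arrays for 5 of the 7, Vim included, against 19.5% of all genes. The median log2 difference of the 7 was -1.27. The groups overlapped for the remaining 2, Acta2 (0.03) and Des (-0.01). Of 9 macrophage and dendritic cell markers 6 were tested, all 6 with a lower mean, against 47.0% of all genes. Both Ifnar1-/- arrays lay below both Ifnar1+/+ arrays for 2 of the 6, Laptm5 and Cd14, against 19.5% of all genes. The groups overlapped for the other 4. The 6 summed to 776 and 855 on the Ifnar1-/- arrays against 1494 and 1179 on the Ifnar1+/+ arrays, and Itgam and Itgax were not detected. The 1 tested B cell marker, Cd79b, was at least 1.39-fold lower, its probe being not well above background in the Ifnar1-/- samples. Cd79b too passed the filter through the Ifnar1+/+ arrays alone, so the filter favoured this direction. The 1 tested endothelial marker, Kdr, was detected on both Ifnar1-/- arrays and on 1 of the Ifnar1+/+ arrays, and its groups overlapped. The part of these cells in the differences above was not tested. The 7 epithelial markers summed to 34768 and 46417 on the Ifnar1-/- arrays against 55161 and 48100 on the Ifnar1+/+ arrays. Their median log2 difference was -0.22, with 6 lower means. Krt20 (-0.88), Vil1 (-0.65) and Krt18 (0.67) did not overlap between the groups. The other 4 did: Cldn7 (-0.42), Krt19 (-0.22), Krt8 (-0.21) and Cdh1 (-0.14). The 5 small intestine markers tested summed to 53902 and 91469 on the Ifnar1-/- arrays against 103913 and 86789 on the Ifnar1+/+ arrays. Their median log2 difference was -0.69, and 3 of the 5 were lower at an unadjusted p under 0.05, against 5.27% of all genes. These 3 were Fabp6, which encodes a bile acid carrier of the ileum (-1.72), the disaccharidase gene Sis (-0.79) and the glucose transporter gene Slc5a1 (-0.69), with limma adjusted p of 0.401, 0.499 and 0.511. The remaining tested markers of this list overlapped between the groups, Apoa4 with a higher mean (0.69) and Apoa1 with a lower one (-0.38). The part of these shifts in the differences above was not tested either.

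By the root mean square difference of the 4 array values, each gene centred on its mean, the genes most like Dhx58 were Ido1, an interferon-inducible enzyme that degrades tryptophan (0.08 log2 units), Ifit2, an interferon-induced RNA-binding protein (0.14), and the amino acid transporter gene Slc36a1 (0.16). Ido1 lay at 6.74 and 6.54 on the Ifnar1-/- arrays and at 7.60 and 8.30 on the Ifnar1+/+ arrays. Ifit2 had a dim probe in the Ifnar1-/- samples, not well above background. The genes most like Ddx58 were Tubd1, Hif1a and Itgav (0.03 to 0.04), and those most like Eif2ak2 were Olfr859, Ldha and Snx13 (0.02 each). The probe of Olfr859, like that of Ifit2, gives only a bound in the Ifnar1-/- samples, so its likeness is uncertain. With 4 arrays and 8442 genes, close matches of small differences are plentiful, and the likeness is a description only.

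The other genes of the pathway give the setting. Of the 17 RNA sensing partners tested 12 had a lower and 5 a higher mean, with a median log2 difference of -0.05, and 0 passed at an adjusted p under 0.05. Tlr3, the endosomal receptor for double-stranded RNA, lay at 4.58 and 4.58 on the Ifnar1-/- arrays (not well above background), against 5.28 and 5.41 on the Ifnar1+/+ arrays, at least 1.04-fold lower. "At least" compares the brighter mean with the lowest detected signal of the dimmer arrays. Tlr3 is among the 12 lower and passed the filter through the Ifnar1+/+ arrays alone, so the filter favoured this direction. Tkfc, a kinase of triose sugars reported to restrain MDA5, differed by -0.84 ± 0.33 (SE), and the RNA helicase gene Ddx1 by 0.44 ± 0.24 (limma adjusted p of 0.511 and 0.577).

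The 19 DNA sensing partners tested had a median of 0.22, with 7 lower and 12 higher means and 0 passing. Dtx4, a ubiquitin ligase reported to act on TBK1, lay at 8.24 and 7.31 on the Ifnar1-/- arrays and at 6.77 and 6.51 on the Ifnar1+/+ arrays, a log2 difference of 1.14 ± 0.34 (SE; limma adjusted p = 0.492). Xrcc6, a subunit of the Ku DNA repair complex, differed by 0.59 ± 0.23, and Lrrfip1, a nucleic acid binding protein, by -0.68 ± 0.27. Cgas, the sensor that makes the messenger read by STING, lay at 5.98 and 6.68 on the Ifnar1-/- arrays and at 6.61 and 6.21 on the Ifnar1+/+ arrays. Its groups overlapped, as they did for the exonuclease gene Trex1 and for Samhd1. These 3 genes were named after their values were seen.

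Among the 19 adaptors, kinases and transcription factors tested the median was 0.01, with 9 lower and 10 higher means and 0 passing. The 3 with the smallest p were interferon regulatory factors. Irf7, the interferon-induced relative of Irf3 that amplifies interferon production, lay at 6.52 and 8.04 on the Ifnar1-/- arrays and at 8.43 and 9.002 on the Ifnar1+/+ arrays, a log2 difference of -1.44 ± 0.50 (SE; limma adjusted p = 0.499). Irf1 differed by -0.70 ± 0.27. Irf5 was at least 1.26-fold lower, its probe being dim in both Ifnar1-/- samples (not well above background). Irf5 is among the 9 lower and passed the filter through the Ifnar1+/+ arrays alone, so the filter favoured this direction. In Irf7 the Ifnar1-/- arrays were further apart than the groups were at their nearest.

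Of the 14 partners of eIF2alpha, ADAR and ZBP1 tested, 7 had a lower and 7 a higher mean, with a median of -0.04 and 0 passing. Ppp1r15b, which steers a phosphatase to eIF2alpha and so opposes PKR, differed by -1.11 ± 0.39 (SE), Adarb1, another RNA editing enzyme detected on only 1 of the 2 Ifnar1-/- arrays, by -0.71 ± 0.26, and the caspase gene Casp8 by -0.60 ± 0.23 (limma adjusted p of 0.499, 0.507 and 0.511). Both tested genes of ISGF3 had both Ifnar1-/- arrays below both Ifnar1+/+ arrays, as had 19.5% of all genes, with log2 differences of -0.55 ± 0.28 for Stat2 and -0.54 ± 0.29 for Irf9 (limma adjusted p of 0.557 and 0.575). Of 15 interferon and receptor genes with a probe 4 were tested, and 9, Ifnb1 among them, were not detected on any array. Ifna1 differed by 0.46 ± 0.22, Il10rb by -0.42 ± 0.25 and Ifnlr1, the receptor chain for type III interferon, by -0.50 ± 0.38 (limma adjusted p of 0.547, 0.601 and 0.663).

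**Figure D5:**
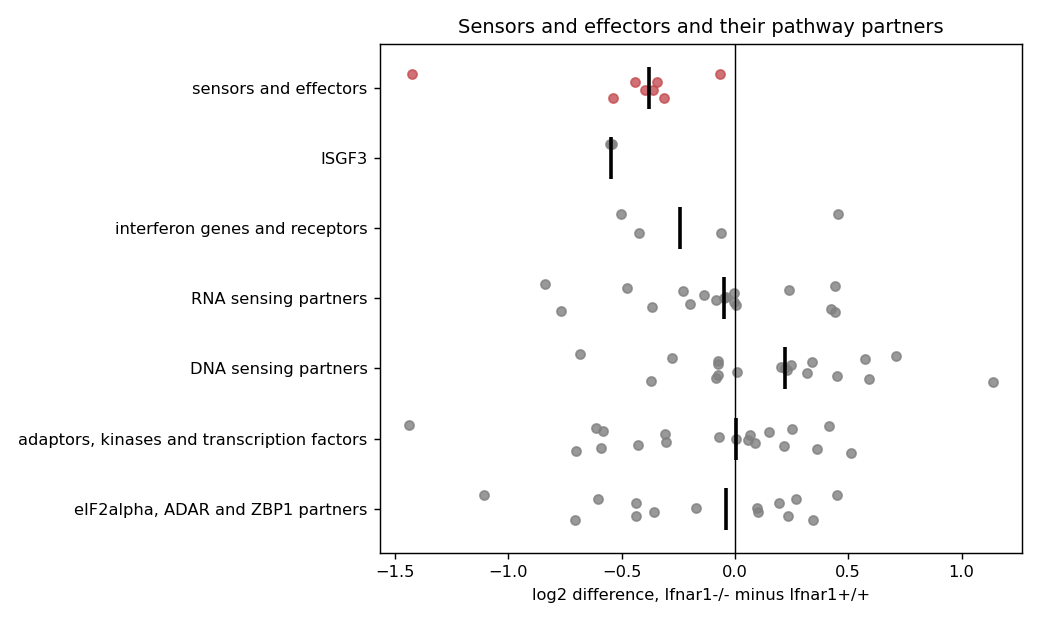
Log2 difference, Ifnar1-/- minus Ifnar1+/+, of each tested gene in the sensors and effectors (red) and in the lists of their pathway partners (grey), with a vertical bar at the median of each list. The sensors and effectors have a median of -0.38 and lie left of 0 throughout, while the larger partner lists spread to both sides of 0.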

How the data were processed

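RNA of intestinal epithelial cells from 2 Ifnar1-/- and 2 Ifnar1+/+ samples was measured on 4 arrays. The array names in the sample descriptions share 1 number, taken here to mean 1 slide, which the labels do not state. The letter after that number is E or F for Ifnar1+/+ and G or H for Ifnar1-/-, so array position and genotype cannot be told apart. The submitters' processing notes name GenomeStudio 1.8. The deposited raw intensity values show no background subtraction or scaling, as medians differ and no value is near 0. A detection p-value was deposited for each probe, per the file headers. In the deposited normalized intensity values all arrays share 1 minimum (93.1) and 1 maximum (57820.3), and the scaling method is not stated.

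The function neqc (limma 3.58.1, R 4.3.3, offset 16) corrected the raw intensities for background by means of the detection p-values, made their quantiles equal and returned log2 values. A probe was kept if its detection p was under 0.05 on 2 or more arrays, 11176 of them with a gene symbol, and the brightest stood for its gene. Of the 25697 probes, 23978 had 1 symbol in the platform annotation. The other 1719, with no symbol or more than 1, were not assigned to a gene. The comparison used limma's lmFit and eBayes (two-sided, Benjamini-Hochberg over 8442 genes, 2 residual and 4.54 prior degrees of freedom). The genes and lists were chosen with earlier results of these data known. By the naming rule, named genes are the 10 sensors and effectors, Ifnar1 and Csnk1a1, the 3 genes of each pathway list with the smallest p, the ISGF3 genes, and the 3 genes nearest in pattern to each of the 3 sensors and effectors with the smallest p. Marker genes, Ifnb1, Cgas, Trex1 and Samhd1 are named outside that rule, after their values were seen. The replicate numbers come from the titles. Deviations of same-numbered samples correlated at -0.05 over genes, and nothing says that they pair the samples. Plots were made in Python 3.11.15 (matplotlib 3.10.9).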

Additional observations from a re-analysis of the deposited data

How the results depend on the processing

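Alternatives changed the background (uncorrected, or offset 50), the scaling (by medians, or as deposited), the filter (absent, or 0.01 on all 4 arrays, which Ddx58 did not pass), the probe summary (averaged, or each probe alone), the moderation (with a trend, or robust), array weighting, the threshold (0.1) and the replicate block, and left out each array. With an array left out, the lone array of a group is assumed to vary like the others. A slide block was not run, as all arrays were taken to lie on 1 slide. The number of sensors and effectors called was 0 under every alternative run, and their median log2 difference kept its sign, from -0.38 to -0.26 over the settings with all arrays and from -0.55 to -0.24 with an array left out. The number of genes called was 0 except with an Ifnar1+/+ array left out (5 without array 1 and 14 without array 2), so that it ranged from 0 to 14. Each of the 8 genes left out 1 array at a time stayed over an adjusted p of 0.1, with ranges of -0.52 to -0.12 for Adar, -0.74 to -0.34 for Ddx58, -1.80 to -1.05 for Dhx58, -0.55 to -0.24 for Eif2ak2, -0.53 to -0.19 for Mavs, -0.55 to -0.14 for Tbk1, -0.80 to -0.08 for Zbp1 and -0.34 to 0.21 for Irf3. Irf3 was at 0.0396 under median scaling, and the other transcript's probe of Adar at 0.15, and the cause was not tested. Median scaling moved the median of all genes to 0.11, and the sensors and effectors then lay 0.39 below it. With the replicate block, Dhx58 differed by -1.43 with an adjusted p of 0.3065, the number of genes called was 0 and no call changed. Signal near background limits the dim probes: without background correction Ddx58 differed by -0.21 and Dhx58 by -0.79.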

Other observations

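The response element letters were also read across all tested genes. Of the tested genes with a promoter window, 249 held them and 6656 did not. Those with the letters had a median log2 difference of 0.01, with 48.6% lower means and 23.7% with both Ifnar1-/- arrays below both Ifnar1+/+ arrays. Those without had a median of 0.03, with 46.8% lower means and 19.1% separated in that direction. This was described and not tested. Of the 8 sensors and effectors tested, Dhx58 lay lowest among all genes, with 0.652% of the 8442 differences at or below it.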
